A study of Mus musculus with 6 samples.

Results

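Heat shock and unfolded protein response genes were described in sorted mouse bone marrow cells as 34 genes of 17523 rows in the deposited count table, taken by their symbols, all of which were found. By role they were 11 cytosolic chaperones and cochaperones, 3 mitochondrial chaperones, 13 endoplasmic reticulum (ER) chaperones and quality control factors, and 7 stress regulators. The study compared 3 RNA-seq libraries of NHD13 mutant mice with 3 libraries of wild-type (WT) mice, both of the C57BL/6 strain. NHD13 joins part of NUP98, which encodes a nuclear pore protein, to part of the homeobox gene HOXD13, and the mice are a model of myelodysplastic syndrome. As commonly used, the NHD13 strain carries the fusion as a transgene under Vav1 regulatory elements, which are active across blood cells, and the labels do not name the promoter. The series calls the sorted cells hematopoietic stem cells, while the labels name no sort markers, no age of the mice and no pooling of animals. Whether each library is a different animal is not stated, so the p-values measure only the spread between these libraries.

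Cells keep proteins folded with chaperone systems that are separate for each compartment. In the cytosol, the transcription factor HSF1 drives the HSP70, HSP90 and HSP40 chaperones when proteins unfold, and mitochondria import their own chaperones HSPA9, HSPD1 and HSPE1. In the ER, where secreted and granule proteins fold, the sensors IRE1 (Ern1), ATF6 and PERK start the unfolded protein response, through which XBP1, ATF6 and ATF4 raise chaperones, disulfide isomerases and degradation factors, and CHOP (Ddit3) if the stress lasts. In blood formation these systems are studied in stem cells, which make protein slowly, and in granulocyte precursors and plasma cells, which fill a large ER with granule proteins or antibody.

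RefSeq promoter windows (build GRCm38.p6, from 250 bases before to 50 bases after the start of a gene) were matched by symbol for 26 of the 34 genes. The ER stress response element, searched as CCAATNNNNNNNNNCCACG on both strands, was present in the windows of 6 of 11 ER genes with an entry, against 0.137% of 27025 genes with a window. Among the windows of the other 15 genes it was present in 0. The matches are given in the orientation of the element, with its fixed letters in capitals, because the ER genes that carry it are those whose levels are compared further on.
Hspa5 (chr2:34772025-34772043, plus strand): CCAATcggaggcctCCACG
Hsp90b1, distal match (chr10:86705638-86705656, minus strand): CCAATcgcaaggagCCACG
Hsp90b1, proximal match (chr10:86705533-86705551, plus strand): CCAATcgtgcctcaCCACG
Calr (chr8:84847075-84847093, plus strand): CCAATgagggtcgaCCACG
Pdia6 (chr12:17266491-17266509, plus strand): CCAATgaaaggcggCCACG
Creld2 (chr15:88819520-88819538, minus strand): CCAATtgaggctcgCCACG
Canx (chr11:50325800-50325818, minus strand): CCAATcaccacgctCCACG
In Hspa5, the gene of the ER HSP70 BiP, the element begins 65 bases before the RefSeq start, and the window (chr2:34771840-34772139, plus strand) is shown with the match in capitals. Gene positions further on are from GENCODE vM21, where Hspa5 starts at 34771970, so that the element lies after that start.
Hspa5 promoter: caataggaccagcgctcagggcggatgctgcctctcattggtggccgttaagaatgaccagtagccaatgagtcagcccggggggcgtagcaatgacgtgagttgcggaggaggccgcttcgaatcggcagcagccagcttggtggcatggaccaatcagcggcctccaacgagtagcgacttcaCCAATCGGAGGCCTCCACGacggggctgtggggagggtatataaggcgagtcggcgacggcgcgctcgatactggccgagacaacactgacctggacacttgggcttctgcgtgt
The heat shock element, searched on both strands as the units GAA, TTC and GAA with any 2 bases between neighbours, was present in the windows of Hspd1, Hspe1 and Hsph1, against 0.662% of the 27025 genes. These were 2 of 2 mitochondrial and 1 of 8 cytosolic genes with an entry, beside 0 of 11 ER genes and 0 of 5 regulators. Hspd1 and Hspe1 lie head to head on chromosome 1, so both hold the same 2 overlapping matches. The Hspe1 window (chr1:55087898-55088197, plus strand) is shown with the matched bases in capitals, because these genes were among those that rose.
Hspe1 promoter: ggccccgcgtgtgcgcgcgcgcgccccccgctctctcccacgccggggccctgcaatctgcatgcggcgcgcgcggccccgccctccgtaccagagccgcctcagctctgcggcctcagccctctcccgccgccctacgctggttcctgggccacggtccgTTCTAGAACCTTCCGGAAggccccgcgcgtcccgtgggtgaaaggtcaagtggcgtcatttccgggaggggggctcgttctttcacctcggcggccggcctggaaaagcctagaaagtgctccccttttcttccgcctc
The match of Hsph1 lies after its start. The element TGACGTGG was present in 0 of the 26 genes' windows (0.714% of all genes), and TGATGNAA, an element read by ATF4 and C/EBP factors, in those of Herpud1 and Trib3 (4.51% of all genes). A match describes these letters only, and no match says nothing about binding of the factor.

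Total counts ran from 13517547 to 14388772 in the NHD13 libraries and from 12541538 to 14308040 in the WT libraries. The row of the fusion held 185, 179 and 167 counts in NHD13 replicates 1, 2 and 3 and 0 in each WT library. Levels are CPM, the counts of a gene scaled to a common library total with TMM, a factor for library composition. NHD13 replicate 1 stood apart from NHD13 replicates 2 and 3, at 28.2 on the second principal component of the log2 CPM values (12.3% of the variance) against -9.44 and -14.1, so results that rest on it are given with and without it. Of the 14 stem cell markers read, none was at 0 in all libraries, but Procr and Fgd5 stayed below 1 CPM in all 6, and the markers summed to 303 to 355 CPM in NHD13 and 484 to 510 CPM in WT. The 10 mature neutrophil genes summed to 22492 to 31192 CPM in NHD13 and 32931 to 50920 CPM in WT. Y-linked genes took 0.0177% to 0.028% of the counts in NHD13 and 0.0109% to 0.0194% in WT.

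In the comparison of NHD13 with WT, 4 of 10 tested cytosolic chaperones and 3 of 3 mitochondrial chaperones rose, and 0 of 13 ER genes passed the threshold in edgeR with all libraries. Of the 34 genes, 32 passed the filter on low counts, and 7 of them rose and 1 fell (edgeR quasi-likelihood test, adjusted p under 0.05). Among all 12013 genes tested, 15% rose and 15.3% fell. The 7 were Hsp90aa1, Hsp90ab1, Hsph1, Dnajb1, Hspa9, Hspd1 and Hspe1, and the 1 that fell was Atf6. Every NHD13 library lay above every WT library for 11 of the 32, against 23.5% of all tested genes, and below for 1, against 22.6%. Hspb1, a small heat shock protein, had 1 count in NHD13 and 1 in WT, and Trib3, a pseudokinase induced by CHOP, had 1, 6 and 7 counts in NHD13 against 3, 2 and 3 in WT, so neither was tested. With the share of Y-linked counts as a covariate in edgeR, 0 of the 32 passed the threshold in either direction (4 higher and 1 lower at an unadjusted p under 0.05), beside 0.924% higher and 1.46% lower of all tested genes. The log2 changes of the 7 that rose were then between 0.15 and 0.56 and that of Atf6 was -0.30, so all 8 called genes kept their sign. NHD13 replicates 1 and 2 had a higher Y-linked share (0.0248% and 0.028%) than any WT library (at most 0.0194%). The covariate thus overlaps with the group, and this fit cannot fully separate them.

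**Figure D1:**
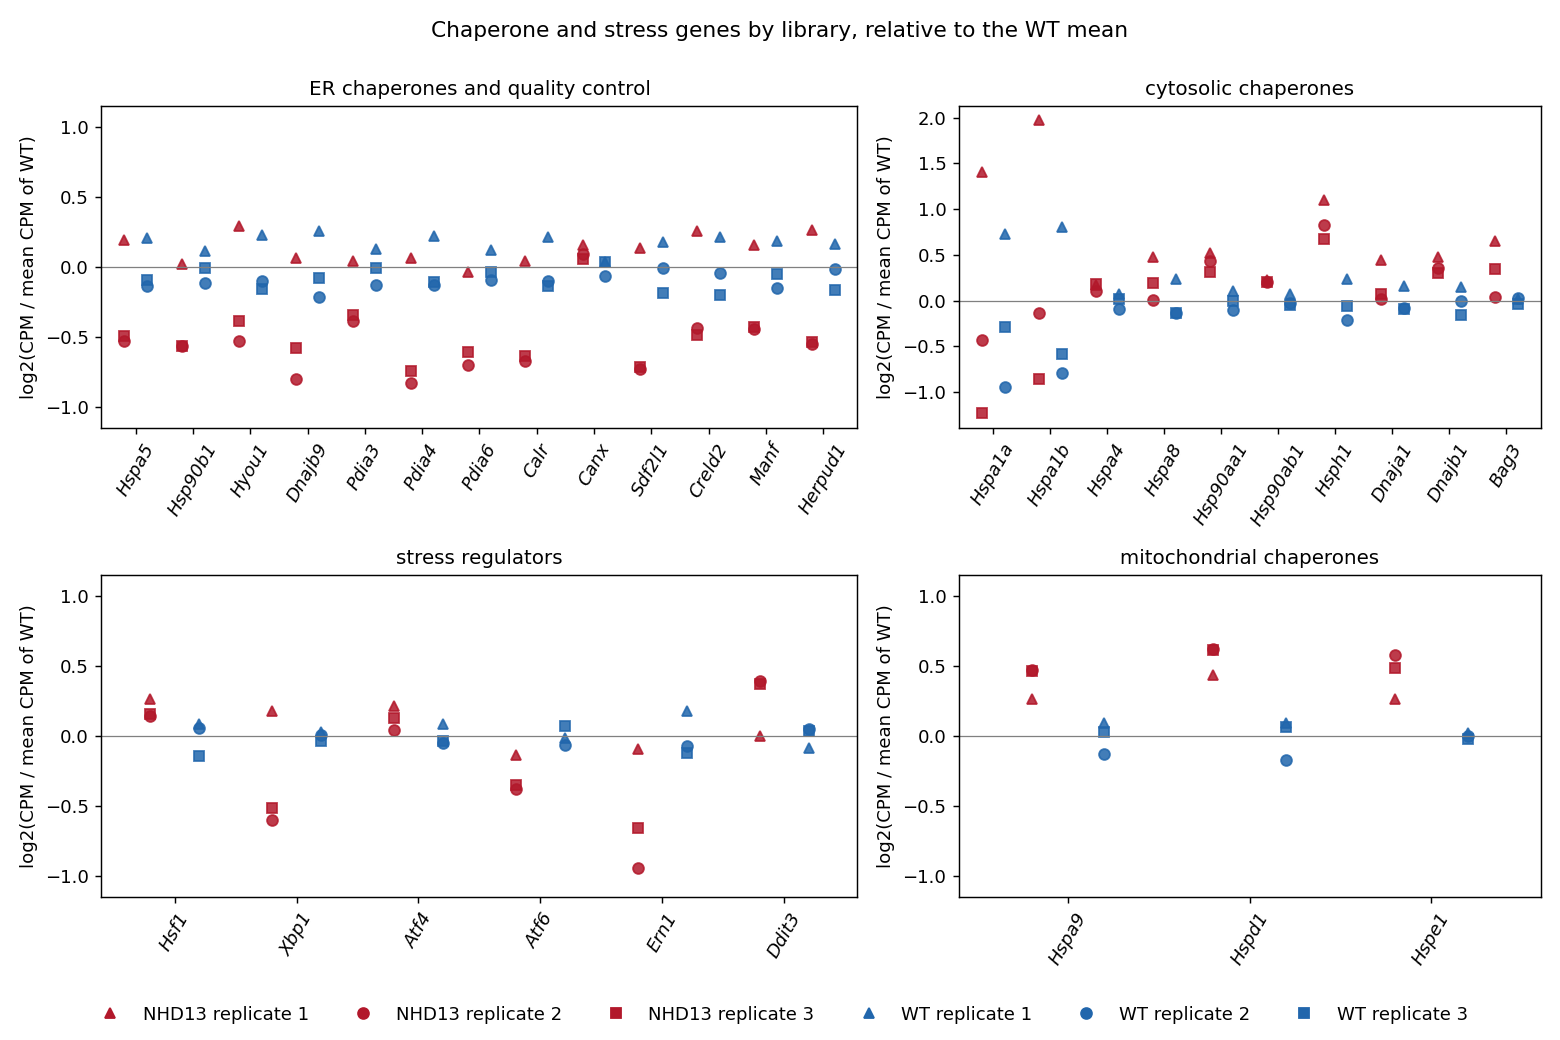
Level of each tested gene in each library, as the log2 of its CPM over the mean CPM of WT (y axis, log2 scale, own range for the cytosolic panel), for NHD13 (red, left of each gene) and WT (blue, right), with the replicate number shown by the marker shape. In the ER panel NHD13 replicates 2 and 3 lie below all WT libraries for every gene but Canx, while NHD13 replicate 1 lies within or above the WT range.

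Of 10 tested cytosolic chaperones 4 rose and 0 fell (0 lower also at an unadjusted p under 0.05, by DESeq2 and by limma-voom), and all 10 had a positive log2 change, with a median of 0.36 against 0.00 over all tested genes. Without NHD13 replicate 1 the same 4 rose, 8 of the 10 had a positive log2 change, and the median was 0.18. Hsph1, the HSP110 nucleotide exchange factor that frees clients from HSP70, moved most of the 4. It was at 269, 222.5 and 201 CPM in NHD13 replicates 1, 2 and 3 and at 148, 109 and 120 CPM in WT replicates 1, 2 and 3. The groups did not overlap, and the log2 change was 0.88 (SE 0.14, adjusted p = 0.00316), or 0.76 without NHD13 replicate 1 (adjusted p = 0.00185).

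The HSP90 pair, which folds kinases and steroid receptors, rose by less. Hsp90aa1, the stress-inducible form, was at 2135, 2009 and 1847 CPM in NHD13 against 1595, 1381 and 1485 CPM in WT (log2 change 0.43, SE 0.08, adjusted p = 0.00576). Hsp90ab1, the constitutive form, was at 2834, 2798 and 2794 CPM in NHD13 against 2550, 2385 and 2358 CPM in WT (log2 change 0.21, SE 0.06, adjusted p = 0.0246). In both genes the lowest NHD13 library stood above the highest WT library. Dnajb1, the HSP40 that delivers clients to HSP70, was at 102, 93.6 and 90.3 CPM in NHD13 against 81.0, 73.1 and 65.7 CPM in WT (log2 change 0.38, SE 0.09, adjusted p = 0.0155). The call of Hsp90ab1 was lost without NHD13 replicate 2 (adjusted p = 0.106), NHD13 replicate 3 (0.104), WT replicate 2 (0.0799) or WT replicate 3 (0.115). That of Dnajb1 was lost without NHD13 replicate 2 (0.0543), WT replicate 2 (0.0619) or WT replicate 3 (0.0672). Thus 2 of the 10 rose in the fits without NHD13 replicate 2, WT replicate 2 or WT replicate 3. In these fits 760, 828 and 806 rose over all genes, against 1799 with all libraries.

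The HSP70 genes themselves were not past the threshold with all libraries and no block. Hspa8, the constitutive HSC70, was at 4195, 3023 and 3435 CPM in NHD13 and at 3550, 2740 and 2746 CPM in WT, so that the groups overlapped, while each NHD13 library was above the WT library of the same number (log2 change 0.24, SE 0.14, adjusted p = 0.216). At the same log2 change of 0.24, Hspa8 passed the threshold with the replicate number as a block (adjusted p = 0.0262) and without replicate 1 of both groups (adjusted p = 0.00394). The labels do not say that the numbers pair the libraries, so the same-number order and the block fit are not a paired comparison. Hspa4, a relative of Hsph1, was at 395, 375 and 397 CPM in NHD13 against 368, 327 and 353 CPM in WT, without overlap (log2 change 0.15, SE 0.07, adjusted p = 0.105), and it passed without replicate 1 of both groups (log2 change 0.18, adjusted p = 0.019). Bag3, an HSP70 cochaperone of selective autophagy, was at 15.8, 10.36 and 12.85 CPM in NHD13 against 10.2, 10.27 and 9.83 CPM in WT, where NHD13 replicate 2 stood only just above the WT libraries (adjusted p = 0.119). Dnaja1, another HSP40, was at 340, 252 and 261 CPM in NHD13 against 277.5, 235 and 234 CPM in WT and its groups overlapped (adjusted p = 0.256).

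The stress-inducible pair Hspa1a and Hspa1b, neighbours on chromosome 17 that encode HSP70, varied widely within both groups. Hspa1b was at 54.3, 12.7 and 7.67 CPM in NHD13 replicates 1, 2 and 3 and at 24.3, 8.04 and 9.27 CPM in WT replicates 1, 2 and 3. Hspa1a was at 12.9, 3.62 and 2.07 CPM in NHD13 and at 8.06, 2.53 and 3.97 CPM in WT. In each group replicate 1 was the highest library for both genes, and NHD13 replicate 1 held 5.34 times the mean of NHD13 replicates 2 and 3 for Hspa1b. The log2 changes were 0.84 (SE 0.75, adjusted p = 0.424) for Hspa1b and 0.35 (SE 0.64, adjusted p = 0.71) for Hspa1a, and without NHD13 replicate 1 they were -0.43 and -0.75, neither past the threshold. Of the 50-base words of the Hspa1a transcript 58.8% also occur in that of Hspa1b, so the split of reads between the pair is uncertain. In addition 19.0% of the exon bases of Hspa1a are shared with Gm20481 on the other strand.

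All 3 mitochondrial chaperones rose, beside 15% of all tested genes. Hspd1 (chromosome 1, 55077835 to 55088243), the HSP60 of the folding chamber, was at 866.5, 985 and 978 CPM in NHD13 replicates 1, 2 and 3 and at 683.5, 567 and 669 CPM in WT (log2 change 0.56, SE 0.09, adjusted p = 0.00338). Hspe1 (chromosome 1, 55088132 to 55091307), the HSP10 lid of the same chamber, was at 171.5, 212.5 and 199.5 CPM in NHD13 and at 145, 143 and 141 CPM in WT (log2 change 0.45, SE 0.08, adjusted p = 0.00621). Hspa9, the HSP70 that pulls proteins into mitochondria, was at 535, 617 and 614 CPM in NHD13 and at 473, 407 and 454 CPM in WT (log2 change 0.40, SE 0.08, adjusted p = 0.00841). For each of the 3 the groups did not overlap and NHD13 replicate 1 was the lowest NHD13 library, the opposite of its place among the cytosolic chaperones, where it was the highest of the NHD13 libraries for 9 of 10, against 39% of all tested genes. WT replicate 1 was the highest WT library for 9 of the 10 cytosolic and for all 3 mitochondrial chaperones. The 3 mitochondrial calls held whichever library was left out. Erythroid genes had the same order of NHD13 libraries, since the 6 found of 8 listed summed to 828, 1227 and 1141.5 CPM in NHD13 replicates 1, 2 and 3 and to 582, 570.5 and 670 CPM in WT. Most of these sums came from Tfrc, at 576, 769 and 711 CPM in NHD13 and at 422, 394 and 482 CPM in WT. Of the 5 erythroid genes tested 4 rose, among them the erythroid transcription factor gene Klf1 (log2 change 1.19, adjusted p = 0.00221). The globin genes Hba-a1 and Hbb-bt were not found and Hbb-b1 was at or near 0 in all 6 libraries, so these rows do not describe globin RNA. The part of erythroid cells in the mitochondrial result was not tested. Hspd1 and Hspe1 share the promoter region shown above, and their annotated exons overlap by 112 bases on opposite strands.

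The ER chaperones and quality control factors split the NHD13 libraries, with replicate 1 above replicates 2 and 3. None of the 13 passed the threshold in edgeR with all libraries, with 1 lower at an unadjusted p under 0.05 (Pdia6), and 1 passed in DESeq2 (Pdia6, adjusted p = 0.0433) and 0 in limma-voom. Their median log2 change was -0.24 and 12 of the 13 were negative. NHD13 replicates 2 and 3 were both below every WT library for 12 of the 13, against 33.2% of all tested genes, and NHD13 replicate 1 was above NHD13 replicates 2 and 3 for all 13, against 39% of all tested genes. Compared with the WT range, NHD13 replicate 1 was within it for 9 of the 13, against 30.7% of all tested genes, above it for 4 and below it for 0. Without NHD13 replicate 1, 12 of the 13 fell (median log2 change -0.54), beside 24.2% of all genes tested in that fit. Without replicate 1 of both groups 12 fell as well, beside 3245 over all genes, against 1839 over all genes with all libraries.

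BiP (Hspa5, chromosome 2, 34771970 to 34777547), the main ER HSP70 and the brake on all 3 sensors, was at 1095.5, 663 and 682 CPM in NHD13 replicates 1, 2 and 3 and at 1105, 873 and 899 CPM in WT. Its log2 change was -0.24 (SE 0.19, adjusted p = 0.358) with all libraries and -0.51 (SE 0.10, adjusted p = 0.00206) without NHD13 replicate 1. Replicate 1 of NHD13 thus stood at the level of WT replicate 1, which was the highest WT library for 12 of the 13 genes. Hsp90b1, the ER HSP90 (GRP94), was at 1223, 812.2 and 811.5 CPM in NHD13 and at 1302, 1112 and 1199 CPM in WT, and 10.3% of its exon bases are shared with a pseudogene on the other strand. Hyou1, the ER relative of HSP110, was at 298, 169 and 186 CPM in NHD13 and at 286, 227 and 218 CPM in WT. Dnajb9, an ER HSP40 that recruits BiP to IRE1, was at 32.25, 17.7 and 20.7 CPM in NHD13 and at 36.8, 26.65 and 29.2 CPM in WT. In these 4 genes NHD13 replicates 2 and 3 were the lowest libraries of the 6.

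The protein disulfide isomerases, which form and shuffle disulfide bonds, also had NHD13 replicates 2 and 3 as the lowest libraries. Pdia4 was at 210, 113 and 120 CPM in NHD13 and at 233, 183 and 186 CPM in WT, a log2 change of -0.45 (SE 0.22, adjusted p = 0.157) that was -0.78 (adjusted p = 0.000272) without NHD13 replicate 1. Pdia6 was at 439, 276.5 and 294 CPM in NHD13 and at 489, 422 and 440 CPM in WT, and it had the lowest adjusted p of the 13 with all libraries (0.0785). Pdia3, which works with calnexin and calreticulin on glycoproteins, was at 985, 733 and 757 CPM in NHD13 and at 1049, 876 and 953 CPM in WT. It had the smallest fall of the 12 without NHD13 replicate 1 (log2 change -0.36, adjusted p = 0.00133), and Pdia4 the largest.

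The 2 lectin chaperones of the glycoprotein folding cycle had different orders of libraries. Calr, soluble calreticulin, was at 1825, 1112.5 and 1141 CPM in NHD13 and at 2059, 1656 and 1613 CPM in WT. Canx, its membrane-bound counterpart calnexin, was at 883, 845 and 827 CPM in NHD13 and at 811, 759 and 812 CPM in WT. Calr was lower in NHD13 replicates 2 and 3 than in any WT library, whereas every NHD13 library of Canx stood above every WT library. The log2 changes were -0.39 for Calr (SE 0.19, adjusted p = 0.148) and 0.10 for Canx (SE 0.06, adjusted p = 0.224), and without NHD13 replicate 1 they were -0.65 (adjusted p = 0.00108) and 0.08 (adjusted p = 0.256). The difference between the genes was not tested. Canx carries the ER stress response element as well, so the element was present both in genes with lower NHD13 replicates 2 and 3 and in the ER gene without them.

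Small ER proteins that are strongly induced by the unfolded protein response showed the pattern too. Sdf2l1, a partner of BiP, was at 113, 62.4 and 63.1 CPM in NHD13 and at 117, 103 and 90.7 CPM in WT. Herpud1, a membrane factor of ER-associated degradation, was at 90.1, 51.2 and 51.8 CPM in NHD13 and at 84.3, 74.2 and 67.0 CPM in WT. Manf, a BiP cofactor, was at 164, 108.5 and 109.6 CPM in NHD13 and at 167, 133 and 142 CPM in WT. Creld2, a disulfide isomerase-like protein, was at 69.5, 42.9 and 41.5 CPM in NHD13 and at 67.4, 56.5 and 50.7 CPM in WT. NHD13 replicate 1 held 1.81 times the mean of NHD13 replicates 2 and 3 for Sdf2l1 and 1.51 times for Manf, and over the 13 ER genes this ratio had a median of 1.63 and a lowest value of 1.06 in Canx.

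The summed granule genes of granulocyte-monocyte progenitors had the same order of libraries as the summed ER genes. The 5 genes found of 6 listed (Mpo, Elane, Prtn3, Ctsg and Ms4a3) summed to 16528, 8735 and 8929 CPM in NHD13 replicates 1, 2 and 3 and to 16629, 12781 and 13336.5 CPM in WT replicates 1, 2 and 3. The 13 ER genes summed to 7429, 5007 and 5105 CPM in NHD13 and to 7807, 6501 and 6698 CPM in WT. Myeloperoxidase (Mpo), the most abundant of the 5, was at 9703, 5055.5 and 5332 CPM in NHD13 and at 9696, 7411 and 7573 CPM in WT. None of the 5 passed with all libraries in edgeR (1 lower at an unadjusted p under 0.05, 0 called in DESeq2 and 1 in limma-voom), and all 5 fell without NHD13 replicate 1. None of the 5 was at 0 in any library, and the part of these cells in the ER result was not tested. In bulk RNA, fewer cells of a type and less RNA per cell cannot be told apart. The 9 plasma cell and B cell genes found summed to 13.3 to 17.1 CPM in NHD13 and 22.7 to 32.3 CPM in WT. Most of these sums came from Cd79b, at 9.53 to 15.8 CPM in NHD13 and 16.4 to 19.65 CPM in WT. The part of these cells was not tested either.

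**Figure D2:**
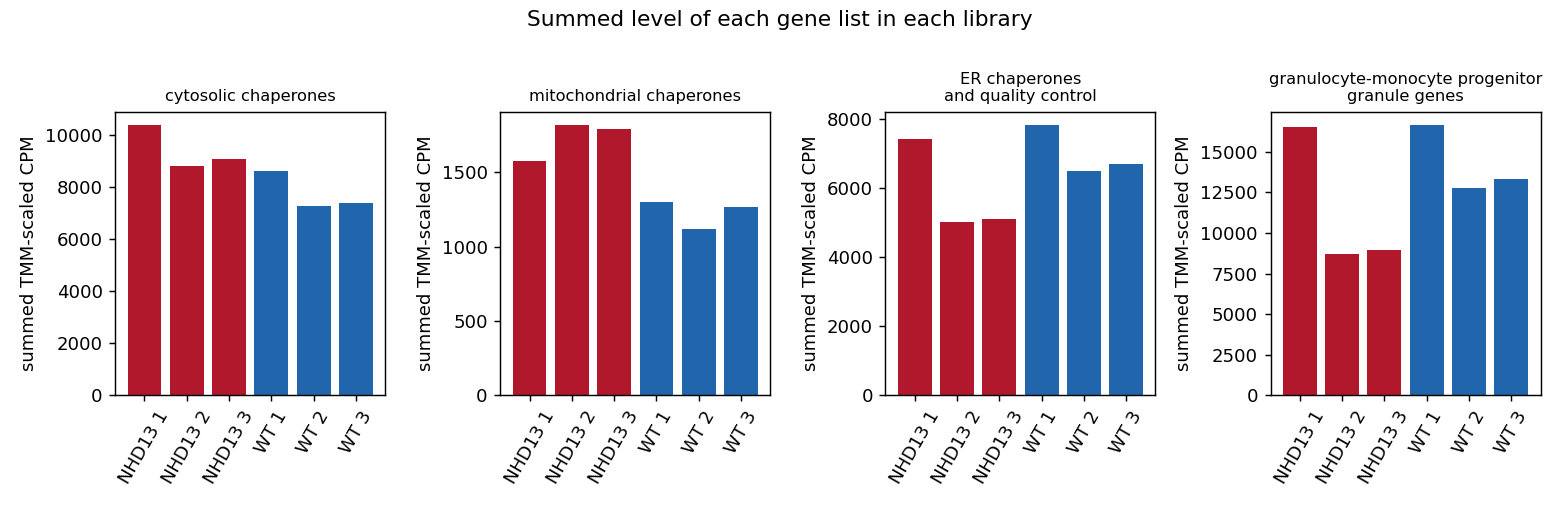
Summed TMM-scaled CPM (y axis, from 0) of the cytosolic, mitochondrial and ER genes and of 5 granule genes of granulocyte-monocyte progenitors, 1 bar per library, NHD13 in red and WT in blue. The ER bars and the granule gene bars are in the same order, with NHD13 replicate 1 beside WT replicate 1 and NHD13 replicates 2 and 3 the lowest.

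Set against each other within a library, the summed level of the ER genes was lower relative to that of the cytosolic genes in all 3 NHD13 libraries. The ratio of the summed ER to the summed cytosolic CPM was 0.718, 0.569 and 0.564 in NHD13 replicates 1, 2 and 3 and 0.9065, 0.894 and 0.9069 in WT replicates 1, 2 and 3. The WT values lay close together and every NHD13 value was below them, that of replicate 1 included. On the log2 scale the ratio was -0.71 ± 0.20 in NHD13 and -0.15 ± 0.01 in WT (SD, n = 3 each), a difference of -0.56, which is given without a test because it is a score over chosen genes. In NHD13 replicate 1 the lower ratio came with a summed cytosolic level of 10352 CPM, the highest of the 6 libraries, and in NHD13 replicates 2 and 3 with the lowest ER sums. The cytosolic sums of NHD13 replicates 2 and 3 were 8799.5 and 9048 CPM, and those of WT were 8613, 7272 and 7386 CPM. Most of the cytosolic sum came from Hspa8, Hsp90ab1 and Hsp90aa1, with means of 3551, 2809 and 1997 of 9400 CPM in NHD13. In WT their means were 3012, 2431 and 1487 of 7757 CPM, so the ratio mainly describes these genes. The mitochondrial genes summed to 1573, 1815 and 1791.5 CPM in NHD13 and to 1301.5, 1116.5 and 1264 CPM in WT.

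Levels per exon length (RPKM, on GENCODE vM21 exons) placed Hsp90ab1 and Hspa8 at the top of the 34 genes in both groups. Hsp90ab1 was at 945, 933 and 932 RPKM in NHD13 and at 850, 795 and 786 RPKM in WT. Hspa8 was at 975, 703 and 799 RPKM in NHD13 and at 825, 637 and 638.5 RPKM in WT, so that in NHD13 replicate 1 it stood above Hsp90ab1. The next place went to Hsp90aa1 in NHD13 by the mean (508 RPKM against 472 RPKM for Calr) and to Calr in WT (617 RPKM against 378 RPKM for Hsp90aa1). The order of this pair was not the same within NHD13, where Calr was at 634 RPKM and Hsp90aa1 at 543 RPKM in replicate 1, and at 386 and 511 RPKM in replicate 2.

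Of the 6 tested stress regulators 1 fell and 0 rose in edgeR (0 higher at an unadjusted p under 0.05, and 0 called higher in DESeq2 and in limma-voom). Atf6, the ER sensor that is cut in the Golgi to release a transcription factor, was at 82.05, 69.4 and 70.8 CPM in NHD13 replicates 1, 2 and 3 and at 89.6, 86.5 and 95.1 CPM in WT. It was the regulator whose NHD13 libraries were all below WT (log2 change -0.29, SE 0.08, adjusted p = 0.0309). Its call was lost without NHD13 replicate 2 (adjusted p = 0.115), NHD13 replicate 3 (0.109), WT replicate 1 (0.0652), WT replicate 2 (0.0656) or WT replicate 3 (0.122), and held without NHD13 replicate 1 (0.000749).

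The IRE1 branch followed the ER genes. Ern1, which encodes the IRE1 kinase and ribonuclease, was at 90.1, 50.1 and 61.0 CPM in NHD13 and at 109, 91.65 and 88.3 CPM in WT (log2 change -0.52, SE 0.19, adjusted p = 0.0685). It passed the threshold in DESeq2 (adjusted p = 0.0294) and without NHD13 replicate 1 (log2 change -0.79, adjusted p = 0.000252). Xbp1, whose RNA IRE1 splices into the active factor, was at 221, 128 and 137 CPM in NHD13 and at 199, 196 and 190 CPM in WT. The WT libraries of Xbp1 lay close together, with NHD13 replicate 1 above them and NHD13 replicates 2 and 3 far below, which gave a log2 change of -0.27 (SE 0.18, adjusted p = 0.28) with all libraries and -0.55 (SE 0.06, adjusted p = 8.6e-06) without NHD13 replicate 1. Gene counts do not separate spliced from unspliced Xbp1.

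The regulators Atf4, Ddit3 and Hsf1 had positive log2 changes and were not past the threshold with all libraries. Eif2ak3, which encodes the sensor PERK and was named after its values were seen, went the other way. It was at 44.9, 42.1 and 38.3 CPM in NHD13 and at 48.8, 49.1 and 47.1 CPM in WT (log2 change -0.21, adjusted p = 0.0768). Atf4, the factor translated when eIF2alpha is phosphorylated, was at 231, 205 and 217 CPM in NHD13 and at 211, 192 and 194 CPM in WT (log2 change 0.13, SE 0.07, adjusted p = 0.192). Ddit3, which encodes CHOP, was at 11.85, 15.6 and 15.3 CPM in NHD13 and at 11.15, 12.3 and 12.1 CPM in WT. In Ddit3 NHD13 replicate 1 was the library at the WT level and replicates 2 and 3 stood above WT, and its log2 change was 0.27 (SE 0.14, adjusted p = 0.166) with all libraries and 0.39 (SE 0.11, adjusted p = 0.0131) without NHD13 replicate 1. Hsf1, the master regulator of the cytosolic response, was at 58.2, 53.6 and 54.05 CPM in NHD13 and at 51.4, 50.4 and 43.8 CPM in WT, without overlap and not past the threshold (log2 change 0.19, SE 0.08, adjusted p = 0.118). Without NHD13 replicate 1, 1 of the 6 regulators rose and 3 fell, beside 24.5% and 24.2% of all genes tested in that fit.

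**Figure D3:**
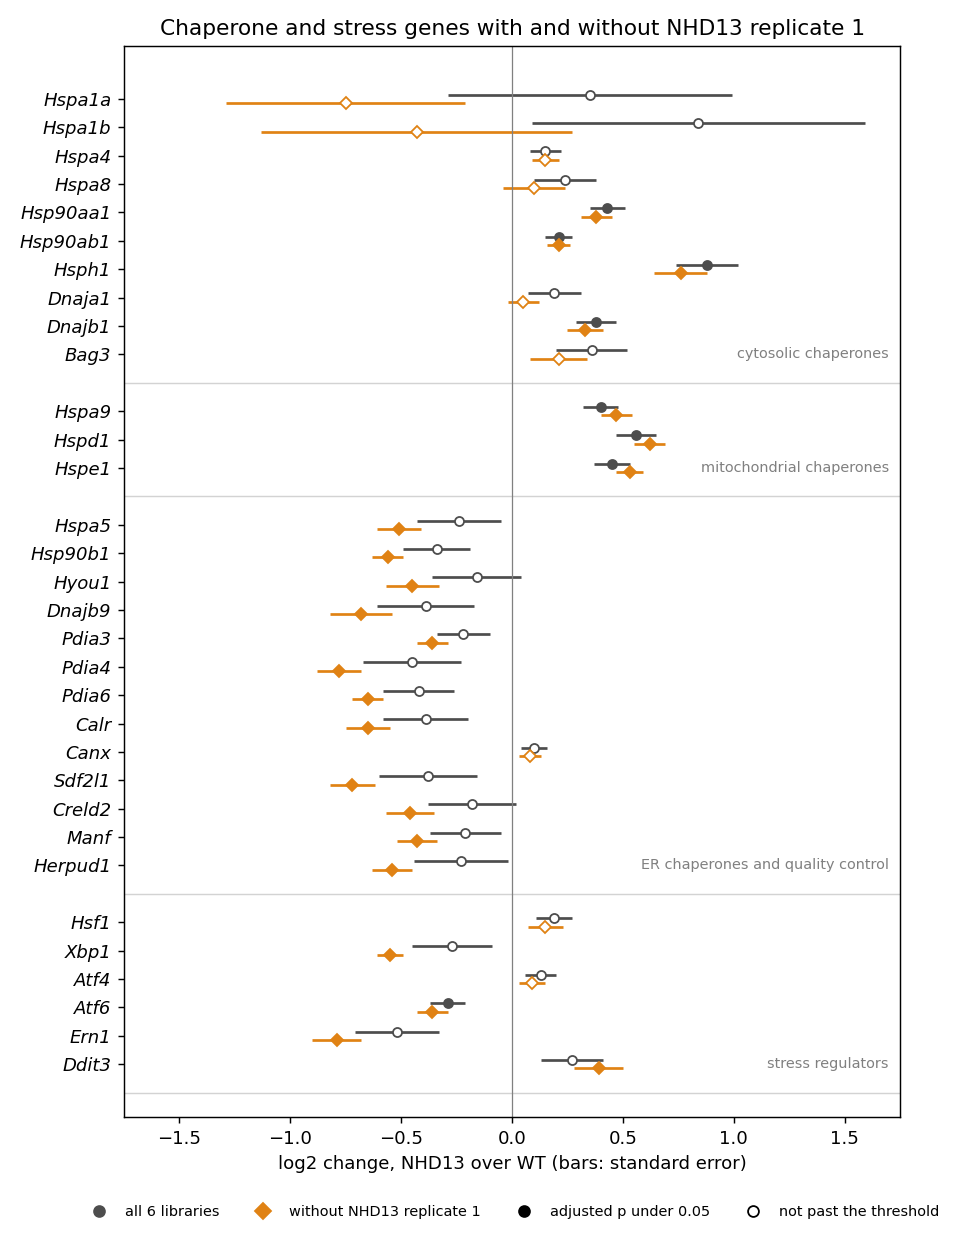
Log2 change of NHD13 over WT (x axis, log2 scale, bars are standard errors) for each tested gene with all 6 libraries (grey circles) and without NHD13 replicate 1 (orange diamonds), filled where the adjusted p was under 0.05. Leaving out this library left the cytosolic calls at 4 and the mitochondrial calls at 3, and moved the ER calls to 12 lower, against 0 with it.

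Other genes of the same systems were read from 8 lists of 117 genes, of which 112 were tested, and their counts stand beside 15% higher and 15.3% lower of all tested genes. Of the chaperonin CCT, the cytosolic ring that folds actin and tubulin, 8 of 8 subunits rose, with a median log2 change of 0.33. Cct7 was at 445, 499 and 479 CPM in NHD13 and at 369, 365 and 368 CPM in WT (log2 change 0.37, SE 0.06, adjusted p = 0.00442). Cct3 (log2 change 0.37, adjusted p = 0.00693) and Cct2 (0.35, adjusted p = 0.00958) had like changes, and as with the mitochondrial chaperones NHD13 replicate 1 was the lowest NHD13 library for all 8. Between 4 and 8 of the subunits rose when 1 library was left out, fewest without NHD13 replicate 2 (4), and 5 without WT replicate 2. Over all genes 760 rose without NHD13 replicate 2 and 828 without WT replicate 2, against 1799 with all libraries.

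Of 17 cochaperones of HSP70 and HSP90, 9 rose and 0 fell (median log2 change 0.25). Bag2, which inhibits the ubiquitin ligase CHIP, was at 42.9, 58.8 and 55.2 CPM in NHD13 and at 32.6, 30.9 and 31.3 CPM in WT (log2 change 0.73, SE 0.12, adjusted p = 0.00359). Ppid, an HSP90-binding prolyl isomerase, was at 181, 187 and 188 CPM in NHD13 and at 154, 134 and 150 CPM in WT (adjusted p = 0.00821), and Bag6 rose as well (log2 change 0.31, adjusted p = 0.0101). Of these 17 genes 3 rose without NHD13 replicate 2, 5 without NHD13 replicate 3, 4 without WT replicate 2 and 2 without WT replicate 3. Calls dropped over all genes too, with 760, 836, 828 and 806 that rose in those fits in the same order, against 1799 with all libraries. Bag6 was lost with adjusted p-values of 0.0567 (NHD13 replicate 2), 0.0506 (NHD13 replicate 3) and 0.056 (WT replicate 3). Of 9 further mitochondrial chaperone and protease genes 4 rose and 0 fell. The HSP40 gene Dnaja3 was at 103, 114 and 118 CPM in NHD13 and at 79.7, 79.5 and 77.8 CPM in WT (log2 change 0.50, adjusted p = 0.00213), and the proteases Htra2 (0.50, adjusted p = 0.00559) and Lonp1 (0.39, adjusted p = 0.00673) rose, as did Clpp (0.38, adjusted p = 0.0292), a protease subunit named after its values were seen. Of 15 tested other cytosolic HSP70, HSP40, small HSP and HSF genes 2 rose and 3 fell, shares near the 15% higher and 15.3% lower of all tested genes. The HSP40 gene Dnajb2 (log2 change 0.52, adjusted p = 0.0211) and the small heat shock gene Hspb6 (0.58, adjusted p = 0.0292) rose, and the heat shock factor gene Hsf2 fell to 11.3, 7.44 and 9.47 CPM in NHD13, against 14.7, 13.85 and 14.15 CPM in WT (log2 change -0.60, adjusted p = 0.0219). The calls of these 3 genes were lost when any library other than NHD13 replicate 1 was left out (adjusted p between 0.0587 and 0.118). The other 2 that fell, named after their values were seen, were the HSP40 genes Dnaja4 (log2 change -1.01, adjusted p = 0.0401) and Dnajb6 (-0.18, adjusted p = 0.0458).

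Outside the 13 ER genes, 20 other ER folding genes gave 5 that fell and 0 that rose, with a median log2 change of -0.27 and 19 of the 20 higher in NHD13 replicate 1 than in NHD13 replicates 2 and 3. Txndc5, a thioredoxin-domain isomerase, had almost no spread within groups, at 107, 108 and 106 CPM in NHD13 and at 129, 129 and 128 CPM in WT (log2 change -0.27, SE 0.06, adjusted p = 0.0101). Fkbp11, a prolyl isomerase of secretory cells, was at 5.025, 1.947 and 2.695 CPM in NHD13 and at 9.41, 7.67 and 7.46 CPM in WT (log2 change -1.35, SE 0.30, adjusted p = 0.012), and Cnpy3 fell as well (log2 change -0.37, adjusted p = 0.0305). The other 2, named after their values were seen, were the disulfide genes Ero1lb (log2 change -0.64, adjusted p = 0.0325) and Pdia5 (-0.69, adjusted p = 0.0401). Between 2 and 11 of the 20 fell when 1 library was left out, with 11 without NHD13 replicate 1 and 2 without any other library, where the call of Cnpy3 was lost (adjusted p between 0.0801 and 0.105). Without any 1 of those other libraries 957 to 1615 fell over all genes, against 1839 with all libraries. Of 16 genes of ER-associated degradation (ERAD), which pulls misfolded proteins out for the proteasome, 3 fell and 0 rose (median log2 change -0.06), where the share that fell is near the 15.3% of all tested genes. These were Selk (log2 change -0.38, adjusted p = 0.0145), Vimp (-0.47, adjusted p = 0.0277) and Edem1 (-0.35, adjusted p = 0.0485, and 0.0517 with the size factors of DESeq2, which ends the call). Between 0 and 1 fell without NHD13 replicate 2, NHD13 replicate 3 or any WT library, against 7 without NHD13 replicate 1, beside 24.2% of all genes tested in that fit.

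Of 11 genes for sensors, proteases and eIF2alpha kinases 3 rose and 0 fell, beside 15% higher and 15.3% lower of all tested genes. Ppp1r15a (GADD34), the stress-induced subunit that reverses eIF2alpha phosphorylation, was at 14.0, 22.7 and 22.0 CPM in NHD13 and at 10.9, 11.6 and 12.3 CPM in WT (log2 change 0.75, SE 0.18, adjusted p = 0.0163). Its constitutive counterpart Ppp1r15b was at 334, 352 and 339 CPM in NHD13 and at 302, 294 and 292 CPM in WT (log2 change 0.21, adjusted p = 0.0239), and Eif2ak2 (PKR), a kinase activated by double-stranded RNA, rose too (log2 change 0.29, adjusted p = 0.0277). These 3 calls were lost when any library other than NHD13 replicate 1 was left out (adjusted p between 0.0534 and 0.126). In those fits 760 to 1208 rose over all genes, against 1799 with all libraries. Of 16 tested targets of ATF4 and CHOP 4 rose and 1 fell (median log2 change 0.17). The tRNA synthetase genes Sars (log2 change 0.44, adjusted p = 0.00596) and Wars (0.36, adjusted p = 0.00847) rose. The serine synthesis genes Psat1 (log2 change 0.21, adjusted p = 0.0383) and Phgdh (-0.31, adjusted p = 0.026), both named after their values were seen, rose and fell. Sesn2, a stress-induced inhibitor of mTORC1, was at 8.775, 14.81 and 11.2 CPM in NHD13 and at 6.96, 6.63 and 7.04 CPM in WT (log2 change 0.76, adjusted p = 0.0205), and its call was lost when any library other than NHD13 replicate 1 was left out (adjusted p between 0.0518 and 0.08). With the covariate of Y-linked counts, 0 genes of these 8 lists passed the threshold in either direction in edgeR (23 higher and 9 lower at an unadjusted p under 0.05). Where a list had 0 calls in a direction with all libraries, DESeq2 and limma-voom also called 0 there, and at an unadjusted p under 0.05 there was 1 higher ERAD gene, 1 lower gene among the sensors and kinases, and 0 in the others.

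**Figure D4:**
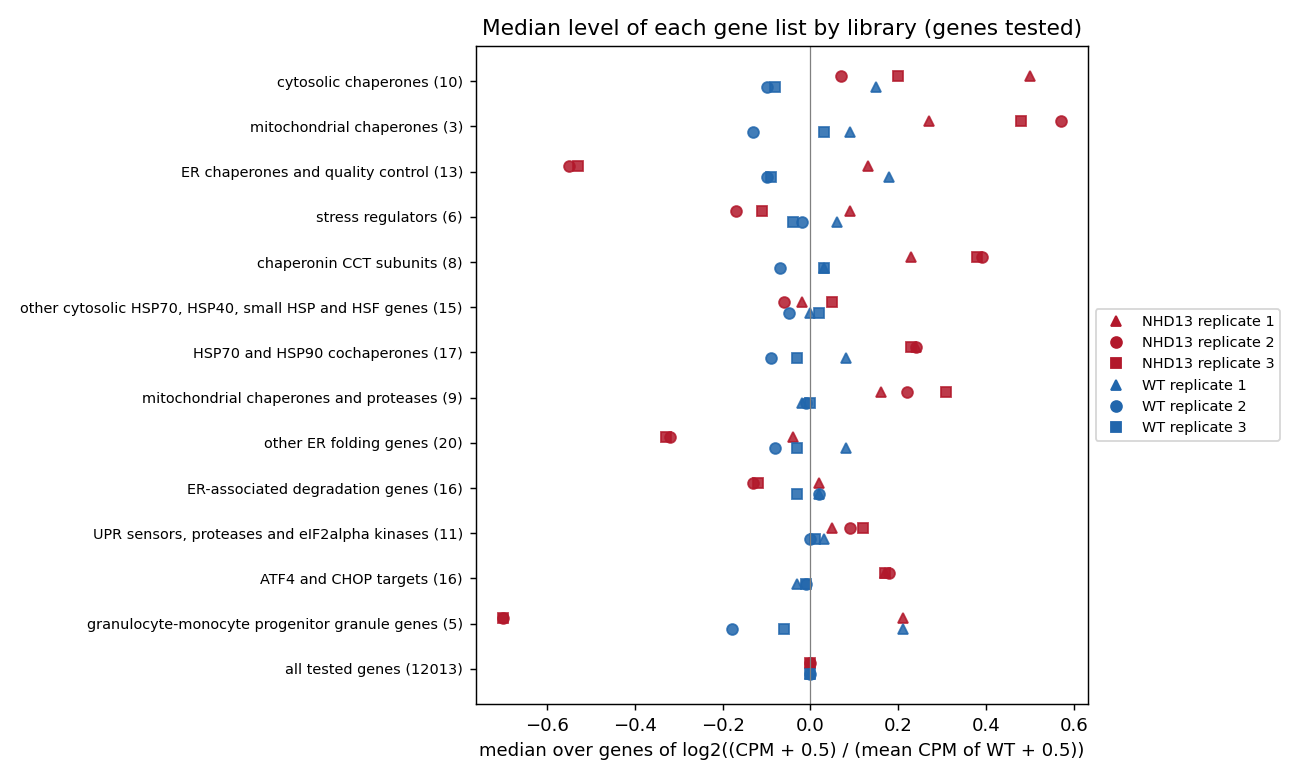
Median over the tested genes of each list (number in brackets) of the log2 level relative to the WT mean, with 0.5 CPM added (x axis, log2 scale), in each NHD13 library (red, upper) and WT library (blue, lower). The ER lists and the granule genes place NHD13 replicates 2 and 3 below WT and replicate 1 near it, while the CCT, cochaperone and mitochondrial lists place all 3 NHD13 libraries above WT. In the cytosolic chaperone list the groups overlap, with NHD13 replicate 2 (0.07) below WT replicate 1 (0.15).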

How the data were processed

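Bulk RNA-seq counts of 3 NHD13 and 3 WT libraries were deposited as 1 table of raw counts per gene. The submitters' processing notes name Bowtie2 2.2.1, HTSeq 0.5.4p3 and the build mm10, while annotation and strand setting are not given. Counts of each library were used as deposited, and all 6 columns matched a label.

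From these counts, edgeR 4.0.16 (R 4.3.3) was fitted to the whole table with filterByExpr (minimum count 10), TMM scaling and the robust quasi-likelihood F test, on group alone. Of 17523 rows 12013 were tested and 5510 were set aside, 719 of them at 0 in every library. P-values were adjusted by Benjamini-Hochberg over all tested genes with a threshold of 0.05. A count of 3 corresponds to 0.208 to 0.239 CPM, which covers counting error only. Alternatives were other scalings, DESeq2 1.42.0, limma-voom (limma 3.58.1), no low-count filter, the replicate number as a block, each library left out, replicate 1 of both groups left out, and the share of counts of 4 Y-linked genes (Ddx3y, Eif2s3y, Kdm5d and Uty) as a covariate. RPKM used GENCODE vM21 exon lengths, which may not be the annotation the authors counted on.

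The genes, lists, motifs and printed promoters were chosen with earlier results of these data known. Genes were named where they passed the threshold or were regulators, with up to 3 of the lowest p per further list, and the values of the other ER and cytosolic genes were added after they had been seen.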

Additional observations from a re-analysis of the deposited data

How the results depend on the processing

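Of the 32 tested heat shock and unfolded protein response genes, 7 rose under every other scaling, in DESeq2, in limma-voom and without the low-count filter, and between 5 and 8 rose when 1 library was left out. With the Y-linked covariate, which overlaps with the group, 0 rose and 0 fell. None of the cytosolic or mitochondrial chaperones rose, against 4 and 3 without the covariate, and the 8 genes that lost their call kept the sign of their log2 change. When 1 library was left out, between 2 and 4 cytosolic and 3 mitochondrial chaperones rose, between 0 and 15 of the 32 fell, and between 0 and 12 of the ER genes fell, where the 15 and the 12 came without NHD13 replicate 1. Without replicate 1 of both groups 15 of the 32 and 12 ER genes fell. DESeq2 called 3 lower, 1 of them an ER gene. Without replicate 1 of both groups 10 rose, Hspa8 and Hspa4 among them. In that fit 3244 genes rose and 3245 fell over all genes, against 1799 and 1839 with all libraries. With the replicate block 8 rose, Hspa8 among them, and 10 fell, 8 of them ER genes, beside 18.6% of all tested genes; same-numbered libraries correlated at 0.249, 0.063 and 0.175 and NHD13 replicate 2 correlated best with WT replicate 3 (0.149), so the numbers were not taken to pair the libraries. Hspa1a reversed to a log2 change of -0.75 without NHD13 replicate 1, -0.20 without replicate 1 of both groups and -1.07 with the Y-linked covariate, and Hspa1b to -0.43 without NHD13 replicate 1 and -0.74 with the covariate. With 1 library left out, the highest values were 0.90 for Hspa1a and 1.5 for Hspa1b, both without WT replicate 1. The cause was not tested. Over all genes, 760 to 3012 rose and 957 to 2966 fell when 1 library was left out, against 1799 and 1839, and 111 rose and 175 fell with the covariate. Hspb1 and Trib3 had too few counts to test.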
